A study of Mus musculus with 2 samples.

Results

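Monocytes and macrophages made up 65 of 28219 spleen cell barcodes, 19 of 10750 in the ALLO library and 46 of 17469 in the SYN library. A member was a barcode with at least 500 UMIs (unique molecular identifiers, each a captured transcript) and at most 10% mitochondrial UMIs. It held at least 3 UMIs summed over 7 genes: Csf1r, the receptor of the growth factor that monocytes and macrophages depend on, Lyz2, a lysozyme of myeloid cells, Fcgr1, a high-affinity antibody receptor, C1qa and C1qb, chains of complement C1q, and Ace and Treml4, a peptidase and a receptor of nonclassical monocytes. It held no UMI of the B cell gene Cd79a, of Cd3d, Cd3e or Cd3g of the T cell receptor complex, or of the dendritic cell genes Siglech, Xcr1, Clec9a, Cd209a and Flt3, and fewer than 10 UMIs of the neutrophil genes S100a8 and S100a9. Members were divided into 3 subsets that may overlap, by at least 1 UMI of Ly6c2 or Ccr2, at least 1 of Ace or Treml4, and at least 2 of C1qa or C1qb. Members were thus selected on the levels of these genes, which are given as a description.

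The study asked how repeated skin grafting with a foreign human transplantation antigen affects the spleen. ALLO stands for a wild-type C57BL/6 recipient grafted at weeks 0 and 5 with tail skin of C57BL/6-Tg(HLAA2.1)1Enge/J mice, which carry a human HLA-A2.1 transgene. SYN stands for a wild-type C57BL/6 recipient given wild-type C57BL/6 skin by the same procedure. Both spleens were taken 4 weeks after the second graft, and the cells were dissociated between frosted slides, frozen, thawed and passed over a column that removes dead cells. The design text names the mouse of each group in the singular and does not state whether animals were pooled, or their age. Each group is 1 library, so no test between groups was possible and no p-value is given. Every interval is an exact 95% interval and covers counting error only. The share that a count of 0 is said to allow is 3 divided by the number of barcodes, which is no exact limit. For 0 of 19 it is 15.8%, where the exact upper limit is 17.6%.

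Classical monocytes, which carry Ly6C and the chemokine receptor CCR2, leave the bone marrow for blood, spleen and inflamed tissue. Nonclassical monocytes arise largely from them under the control of the nuclear receptor Nr4a1 and patrol the vessel wall. The spleen stores both, and it also holds red pulp macrophages, which engulf aged red cells and recycle their iron through heme oxygenase 1 (Hmox1) and the iron exporter ferroportin (Slc40a1).

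Members were 0.177% of ALLO barcodes (0.106 to 0.276) and 0.263% of SYN barcodes (0.193 to 0.351), and the ratio of the shares was 0.671 (0.371 to 1.17). Among barcodes with no Cd79a and no Cd3 UMI the shares lay closer together, at 2.34% of 811 in ALLO and 2.67% of 1720 in SYN. Both ratios had intervals that spanned 1. The 19 ALLO members held 39462 UMIs, with 668 in the shallowest, a median of 1426 and 5374 in the deepest. The 46 SYN members held 142529 UMIs, with 557 in the shallowest, a median of 1526 and 26161 in the deepest, which alone held 18.4% of the SYN total. Ribosomal protein genes took a median of 9.14% of UMIs in ALLO members and 15.2% in SYN members, and mitochondrial genes took 1.57% and 1.20%. The libraries shared 264 barcodes, and 1 ALLO member was among them.

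The marker genes went with the label in most members, and in some SYN members they did not. Lyz2 was found in 16 of 19 ALLO and 43 of 46 SYN members, and Csf1r in 16 of 19 and 30 of 46. Among SYN members, 12 held Lyz2 as their only marker, while no ALLO member did. Just inside the limit, with exactly 3 marker UMIs, stood 0 ALLO and 3 SYN members, and just outside it, with exactly 2, stood 5 ALLO and 8 SYN barcodes. The deepest SYN member had only 3 Lyz2 UMIs among its 26161, beside 168 UMIs of Mpo, the myeloperoxidase of granulocyte and monocyte precursors, and 55 of the histone gene Hist1h2ae. No ALLO member held more than 5 UMIs of the dividing-cell list, whereas that same SYN member held 162 of 213.

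**Figure D1:**
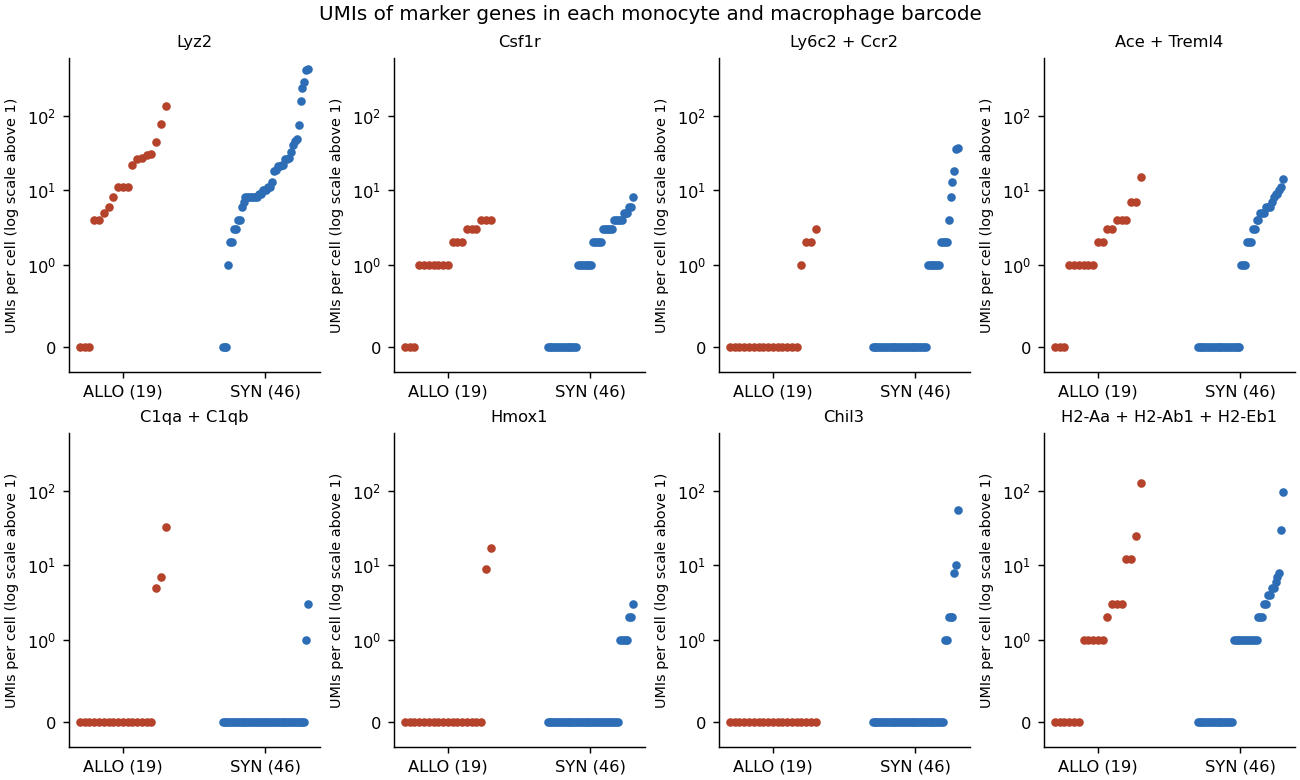
Each point is 1 barcode, with ALLO left and SYN right; the vertical axes give UMIs per cell, linear up to 1 and logarithmic above, for 8 genes or gene sums, with points in order of rising value. Lyz2 and Csf1r were spread over most members of both libraries, whereas Chil3 UMIs were found in 8 SYN and no ALLO members, and high C1qa and C1qb sums in ALLO members.

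Marker UMIs were also found in barcodes of other cells, and this background differed between the libraries. The neutrophil and dendritic cell limits of the rule were kept for all barcodes compared here. Of SYN barcodes under 1000 UMIs with at least 2 Cd79a UMIs, taken as B cells, 25 of 1829 (1.37%, 0.886 to 2.01) held at least 3 marker UMIs, close to the 18 of 1160 (1.55%, 0.922 to 2.44) among SYN barcodes of that depth with neither Cd79a nor Cd3 UMIs. In ALLO the same shares were 0 of 219, which allows up to 1.37% (exact upper limit 1.67%), and 6 of 443 (1.35%, 0.499 to 2.92). The median depths were 700.0 UMIs in these SYN B cell barcodes and 640.5 in the SYN barcodes set beside them. At this depth the SYN share was thus at the level of SYN B cell barcodes. T cell barcodes of that depth held none, with 0 of 283 in SYN, which allows up to 1.06%. For the 6 markers other than Lyz2 the SYN counts were 3 of 1160 without receptor genes and 1 of 1829 among B cell barcodes, so the B cell signal was mostly Lyz2. The medians of the main lists are therefore also given without Lyz2-only members and over members of 1000 or more UMIs. Over all depths, 2.43% of ALLO and 2.91% of SYN barcodes with neither receptor gene passed the limit, above the 0.0286% of ALLO and 0.465% of SYN B cell barcodes.

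**Figure D2:**
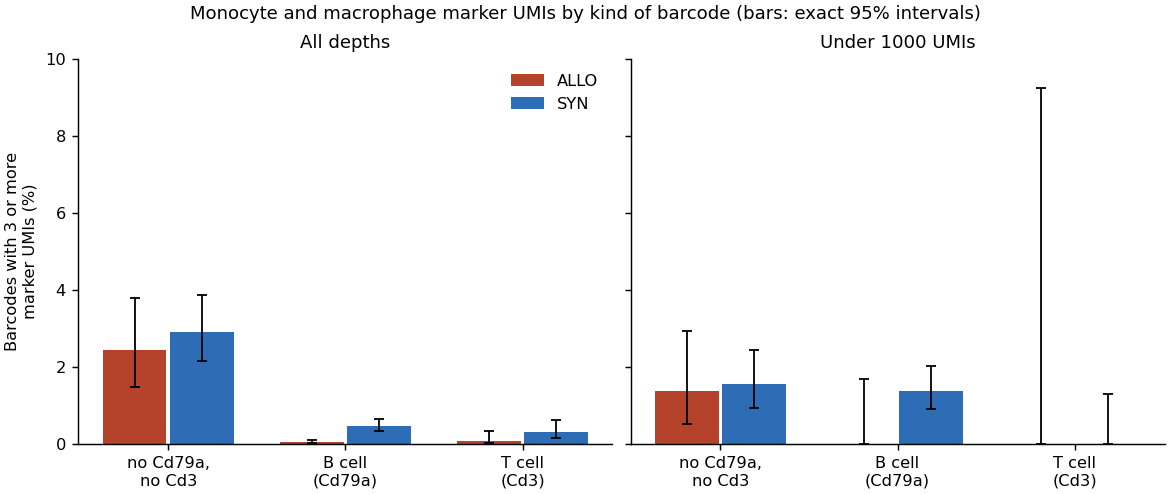
Bars give the percentage of barcodes with at least 3 UMIs over the 7 marker genes, at all depths and under 1000 UMIs, with ALLO left of SYN, in barcodes without Cd79a and Cd3 UMIs, with at least 2 Cd79a UMIs and with at least 2 Cd3 UMIs; whiskers are exact 95% intervals. Under 1000 UMIs the SYN B cell bar (1.37%) reached nearly the height of the SYN bar without lymphocyte genes (1.55%).

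The subsets differed in proportion. Ace or Treml4 marked 16 of 19 ALLO members (84.2%, 60.4 to 96.6) and 23 of 46 SYN members (50.0%, 34.9 to 65.1). Ly6c2 or Ccr2 marked 4 of 19 ALLO (21.1%, 6.05 to 45.6) and 17 of 46 SYN members (37.0%, 23.2 to 52.5). All 4 ALLO members with Ly6c2 or Ccr2 also held Ace or Treml4, so that 0 of 19 ALLO members, which allows up to 15.8%, held Ly6c2 or Ccr2 alone, against 12 of 46 in SYN (26.1%, 14.3 to 41.1). C1qa or C1qb marked 3 of 19 ALLO members (15.8%, 3.38 to 39.6) and 1 of 46 SYN members (2.17%, 0.0550 to 11.5). None of the 3 marker pairs was found in 1 of 19 ALLO and 11 of 46 SYN members. The ratio of the Ace/Treml4 shares was 1.68 (0.832 to 3.33), and the interval spanned 1, as it did for Ly6c2/Ccr2 at 0.570 (0.139 to 1.75) and for C1q at 7.26 (0.583 to 381). It also spanned 1 for none of the pairs, at 0.220 (0.00511 to 1.51). For Ly6c2 or Ccr2 alone the ratio was 0 (0 to 0.871), with an interval below 1. Without the Lyz2-only members the counts for Ly6c2 or Ccr2 alone were 0 of 19 ALLO and 6 of 34 SYN members. Over members of 1000 or more UMIs they were 0 of 13 and 8 of 28. No ratio or interval was computed for these smaller sets, so the interval below 1 holds for the full set only.

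The subset shares depended on depth and on the Lyz2-only barcodes. With every member thinned to 1000 UMIs, which left out 6 ALLO and 18 SYN members, Ace or Treml4 was found in 8 of 13 ALLO (61.5%) and 16 of 28 SYN members (57.1%). Ly6c2 or Ccr2 was then found in 3 of 13 ALLO and 6 of 28 SYN members. Without the Lyz2-only members, Ace or Treml4 marked 23 of 34 SYN members (67.6%) and the ALLO share stayed at 16 of 19. Over members of 1000 or more UMIs, without thinning, it marked 12 of 13 ALLO and 17 of 28 SYN members. Of the Ace/Treml4 members, 6 in ALLO and 3 in SYN were at the limit with 1 UMI; of the Ly6c2/Ccr2 members, 1 and 7 were. Free RNA gave no Ace, Treml4, C1qa or C1qb signal that could be gauged in the B and T cell barcodes set beside members, because those were chosen without marker UMIs, but Ccr2 and Ly6c2 could be gauged. Thinned to 1000 UMIs in a separate random draw, so that its counts need not match those of the subsets, Ccr2 was found in 15.4% of ALLO and 25.0% of SYN members, against 0.2% and 0.3% of B cell barcodes. Without thinning it was found in 15.8% of ALLO and 28.3% of SYN members, against 0.243% and 0.564% of B cell barcodes, whose median depths were 3151 UMIs in ALLO and 2713.5 in SYN. Ly6c2, which T cells also express, was found after thinning in 0 of 13 ALLO members, which allows up to 23.1%, and 21.4% of SYN members, against 23.8% and 18.6% of T cell barcodes and 0.9% of B cell barcodes in both libraries. Ly6c2 was thus found at a like share in SYN T cell barcodes and SYN members.

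**Figure D3:**
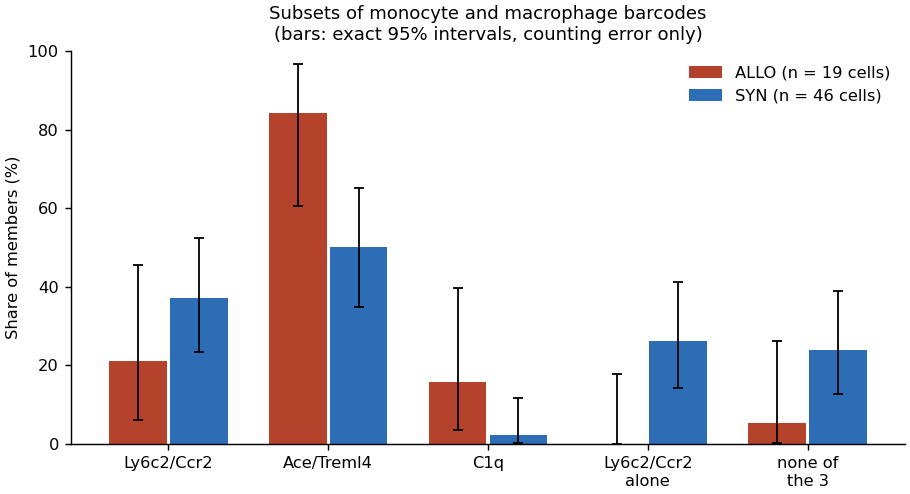
Bars give the percentage of 19 ALLO (left) and 46 SYN (right) members in each subset, with Ly6c2/Ccr2 members that hold neither other marker pair and members with none of the pairs at the right; whiskers are exact 95% intervals. The Ace/Treml4 bars stand at 84.2% in ALLO and 50.0% in SYN, and the Ly6c2/Ccr2 alone bar is at 0 in ALLO.

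Gene levels were compared as CPM, the UMIs of a gene summed over the members of a library, divided by the total UMIs of those members and multiplied by 1000000. With both libraries summed, 1549 genes reached 20 UMIs. Of these, 296 (19.1%) were at least 1.5-fold higher in ALLO and 385 (24.9%) at least 1.5-fold lower, with a median log2 ratio of -0.03. Counts of list genes are read against these shares. Genes that chose the members were left out of the list counts, and a gene without UMIs in ALLO was set to 3 UMIs there.

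Classical monocyte genes were lower in ALLO. Of 11 measured, 0 were higher and 7 lower, with a median log2 ratio of -1.73, a value that rests on the 3-UMI floor. F13a1, the A subunit of coagulation factor XIII, had 25.3 CPM in ALLO and 926 in SYN, with 1 UMI in 1 of 19 ALLO cells and 132 in 13 of 46 SYN cells (ratio 0.0274, 0.000688 to 0.155). Fn1, fibronectin, had 50.7 CPM in ALLO and 737 in SYN (ratio 0.0688, 0.00822 to 0.255). Chil3, a chitinase-like protein of classical monocytes, had 0 UMIs in ALLO and 82 in 8 SYN cells, of which 1 cell held 56. It was 7.57-fold lower in ALLO at the 3-UMI floor, and the exact interval reached down to 6.02-fold. Hp, haptoglobin, had 76.0 CPM in ALLO and 554 in SYN. Plac8 did not go this way, with 1216 CPM in ALLO and 1123 in SYN (ratio 1.08, 0.768 to 1.5), nor did Ms4a6c, with 862 and 891.

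The SYN values of F13a1, Fn1 and Chil3 came mostly from a small set of deep cells, whereas Hp had 79 UMIs in 23 SYN cells with at most 17 in one. The SYN member with 12469 UMIs held 433 Lyz2, 18 Ly6c2, 19 Ccr2 and 32 F13a1 UMIs. The SYN member with 11014 UMIs held 421 Lyz2, 20 Ly6c2, 16 Ccr2, 50 Fn1 and 56 F13a1 UMIs. Among ALLO members the highest Ly6c2 count was 3 and the highest Ccr2 count 2, and the ALLO cell with 3 Ly6c2 UMIs is described below with genes of natural killer cells. The median of the list was -2.06 both without Lyz2-only members and over members of 1000 or more UMIs. With the libraries summed, the Ly6c2/Ccr2 members had 34.8-fold (0 UMIs in other members, floor of 3), 32.7-fold and 22.9-fold the level of Chil3, Fn1 and F13a1 of the other members, which describes the subset and is no test.

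Members of the S100, annexin and galectin list, many of them cytoskeletal or calcium-binding proteins of classical monocytes, were lower in ALLO over all members. Of 15 measured, 1 was higher and 8 lower in ALLO, with a median log2 ratio of -0.65. Within Ace/Treml4 members the median changed sign to 0.34 over 10 measured genes, with 3 higher and 3 lower. The median was -0.85 without Lyz2-only members and -0.55 over members of 1000 or more UMIs. S100a4, a calcium-binding regulator of cell motility, had 228 CPM in ALLO and 793 in SYN (ratio 0.288, 0.128 to 0.566). Lgals3, galectin 3, had 431 and 1059 CPM, and Vim, the filament protein vimentin, 431 and 1130. The highest SYN cell held 45 of 151 Lgals3 UMIs and 55 of 161 Vim UMIs.

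Nonclassical monocyte genes were higher in ALLO over all members. Of 17 measured that did not choose the members, 12 were higher and 0 lower, with a median log2 ratio of 0.85. Fcgr4, an antibody receptor of the same cells that stands in the Fc receptor list, went the other way and is described with that list. Adgre4, an adhesion receptor, had 887 CPM in ALLO and 386 in SYN (ratio 2.30, 1.46 to 3.58). Cebpb, a transcription factor that nonclassical monocytes need to survive, had 2306 and 1158 (ratio 1.99, 1.52 to 2.59). Pglyrp1, a peptidoglycan-binding protein, had 1166 and 561 (ratio 2.08, 1.41 to 3.02). Cd300ld, a surface receptor of the CD300 family, had 760 and 210 (ratio 3.61, 2.10 to 6.20). Itgal, the alpha chain of the integrin LFA-1 and no member of that list, had 1166 CPM in ALLO and 491 in SYN (ratio 2.37, 1.60 to 3.49). For Nr4a1, with 456 and 246 (ratio 1.86, 0.990 to 3.37), and Cx3cr1, the fractalkine receptor, with 355 and 246 (ratio 1.44, 0.718 to 2.75), the intervals spanned 1. Without the deepest SYN member 8 of 17 were higher and the median was 0.56, beside 15.9% of 1289 genes. With every cell given equal weight the median was 0.32. It was 0.41 without Lyz2-only members and 0.89 over members of 1000 or more UMIs.

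Within the Ace/Treml4 members, 16 in ALLO and 23 in SYN, most of these differences were smaller or changed sign. Of 760 genes measured there, 102 (13.4%) were higher and 133 (17.5%) lower in ALLO. Among 17 nonclassical genes, 2 were higher and 4 lower, with a median log2 ratio of -0.23, against 0.85 over all members. Nr4a1 had 16 UMIs in ALLO and 31 in SYN (ratio 0.821, 0.419 to 1.55), and Adgre4 34 and 50 (ratio 1.08, 0.679 to 1.71). Of the classical genes 5 were measured, against 11 over all members, with a median of 0.30. F13a1, Fn1 and Chil3 were not among them, with no more than 2 UMIs in either library. Hp was lower there too, with 3 UMIs in ALLO and 25 in SYN (ratio 0.191, 0.0369 to 0.626). Cebpb had 90 UMIs in ALLO and 94 in SYN (ratio 1.52, 1.13 to 2.06). Neither library reached the 30 cells per subset that had been set for naming genes within one, and the genes of these members were listed after their number was known.

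**Figure D4:**
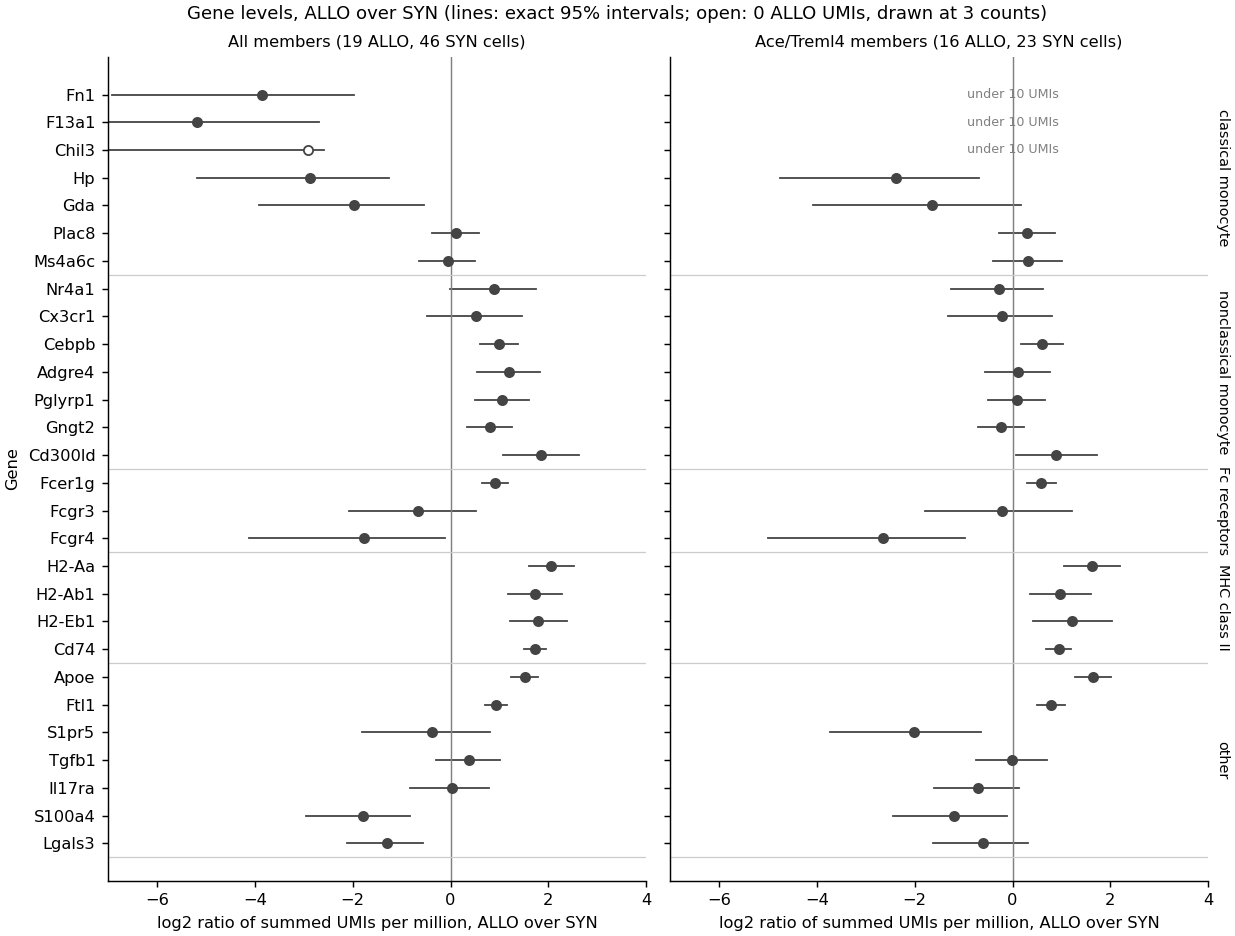
Points give the log2 ratio of summed CPM, ALLO over SYN, for 28 genes in 5 groups, over all members (left) and over Ace/Treml4 members (right); lines are exact 95% intervals, cut at the axis, open points have 0 ALLO UMIs and are drawn at the 3-UMI floor, and genes under 10 UMIs carry no point. The classical genes Fn1 and F13a1 lie left of 0 at the left, the nonclassical genes lie nearer 0 at the right, with Cebpb and Cd300ld still right of it, and Apoe stays right of 0 in both.

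Apolipoprotein E was higher in ALLO in summed level, both over all members and within the Ace/Treml4 members. Apoe, which carries lipids out of macrophages, had 4967 CPM in ALLO and 1740 in SYN (ratio 2.85, 2.35 to 3.46), and was found in 14 of 19 and 29 of 46 cells. The highest ALLO cell held 72 of 196 UMIs and the highest SYN cell 40 of 248. Within the Ace/Treml4 members Apoe had 190 UMIs in ALLO and 97 in SYN (ratio 3.12, 2.43 to 4.02). Of the 190 ALLO UMIs there, 1 cell held 72 and another held 43, while the highest SYN cell held 14. The share of these cells with an Apoe UMI was lower in ALLO, at 75.0%, than in SYN, at 82.6%. Over all members the log2 ratio of Apoe was 1.28 with cells of equal weight and 1.37 without the deepest ALLO member. It was 1.36 without Lyz2-only members and 1.65 over members of 1000 or more UMIs. In B cell barcodes Apoe had 134 CPM in ALLO and 148 in SYN. In the lipid handling list, 6 of 9 measured genes were higher and 1 lower, with a median of 0.85 over all members, and 2 of 6 were higher and 1 lower, with a median of 0.02, within Ace/Treml4 members.

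C1q and heme oxygenase UMIs in ALLO members were found mainly in 3 cells. The first, with 1426 UMIs, held 17 C1qa, 16 C1qb, 8 C1qc, 17 Hmox1, 8 Slc40a1, 8 Vcam1 and 9 Maf UMIs and 1 Treml4 UMI, but no Lyz2. The second, with 763 UMIs, held 4 C1qa, 3 C1qb, 9 Hmox1 and 3 Fcna UMIs, Fcna being a ficolin of macrophages. The third, with 1170 UMIs, held 2 C1qa and 3 C1qb UMIs beside 26 Lyz2, 14 H2-Eb1 and 9 Fabp5 UMIs, and no Hmox1. The SYN member of the C1q subset, with 5340 UMIs, held 2 C1qa, 1 C1qb, 1 C1qc and 2 Hmox1 UMIs beside 5 Ace and 4 Ccr2 UMIs. A further SYN member, with 766 UMIs, had too few C1q UMIs for the subset. It held no Hmox1, but 27 Lyz2, 8 Fabp5, 1 C1qa, 2 C1qc, 2 Spic and 1 Vcam1 UMIs. Hmox1 had 659 CPM in ALLO and 84.2 in SYN (ratio 7.83, 3.81 to 17.0), with all 26 ALLO UMIs in 2 cells and 12 SYN UMIs in 8 cells. Of the red pulp and marginal zone list, 4 genes other than C1qa and C1qb were measured. Hmox1 and Hpgd, a prostaglandin-degrading enzyme with 36 ALLO UMIs in 8 cells, 10 of them in C1q cells, were higher. Adgre1 (ratio 1.13, 0.323 to 3.22) and Trf (1.17, 0.534 to 2.36) were between the limits. With the libraries summed, Hpgd had 63 UMIs in Ace/Treml4 members and 7 in the other members (8.23-fold in level). Its log2 ratio was 0.90 within Ace/Treml4 members, against 1.94 over all members.

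The ferritin chains that store iron were higher in ALLO over all members, and the C1q cells held a large part of this. Ftl1, the ferritin light chain, had 6234 CPM in ALLO and 3255 in SYN (ratio 1.91, 1.63 to 2.24), was found in 18 of 19 and 40 of 46 cells, and had a ratio of 1.72 (1.41 to 2.11) within Ace/Treml4 members. Fth1, the heavy chain, had 2787 and 1852 (ratio 1.5, 1.19 to 1.89), and 1.21 (0.900 to 1.62) within Ace/Treml4 members. The 3 ALLO C1q cells, one of them also an Ace/Treml4 member, held 94 of the 246 ALLO Ftl1 UMIs and 38 of the 110 Fth1 UMIs. Without the C1q members of both libraries the log2 ratios were 0.41 for Ftl1 and 0.21 for Fth1, under the 1.5-fold limit, and 0.19 for Hmox1. Of 10 iron and heme genes measured, 4 were higher and 0 lower, with a median of 0.21, and the median was 0.07 without C1q members.

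Genes of MHC class II, which present peptides to CD4 T cells, were higher in ALLO in summed level. Most ALLO UMIs of H2-Aa, H2-Ab1, H2-Eb1 and Cd74 were in 1 cell. H2-Aa had 2281 CPM in ALLO and 547 in SYN (ratio 4.17, 3.04 to 5.72), with 58 of 90 ALLO UMIs in the deepest ALLO member and 37 of 78 SYN UMIs in 1 SYN member. Cd74, the invariant chain that guides class II molecules, had 8033 and 2442 (ratio 3.29, 2.82 to 3.84), with 169 of 317 ALLO UMIs in that same ALLO cell. The cell held 135 Lyz2, 4 Csf1r, 3 Ace and 2 Ccr2 UMIs among 5374. Without it the log2 ratios, with every SYN member kept, were 0.78 for H2-Aa, 0.83 for Cd74, 0.82 for H2-Eb1 and -0.38 for H2-Ab1. H2-Ab1 thus turned round. The SYN member with the 37 H2-Aa UMIs also held 38 of 60 H2-Ab1, 21 of 52 H2-Eb1 and 131 of 348 Cd74 SYN UMIs. Levels without both cells were not computed. With cells of equal weight the log2 ratios were 0.41, 0.41, 0.33 and 0.28 in the same order. Of 7 genes measured in the class II and costimulation list, 4 were higher and 1 lower, with a median of 1.72. The median was 0.07 without the deepest ALLO member, 1.51 without Lyz2-only members and 2.13 over members of 1000 or more UMIs. Class II RNA was also found in T cell barcodes. Thinned to 1000 UMIs, H2-Aa was found in 30.8% of ALLO and 14.3% of SYN members, against 4.70% and 5.80% of T cell barcodes. Without thinning the shares were 57.9% and 34.8% of members and 15.8% and 17.4% of T cell barcodes. Cd74 and H2-Eb1 were found in a smaller share of ALLO than of SYN members without thinning, at 57.9% and 80.4% for Cd74 and at 26.3% and 32.6% for H2-Eb1. After thinning the shares were 76.9% in ALLO and 71.4% in SYN for Cd74, and 30.8% and 7.14% for H2-Eb1.

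The class II genes share promoter elements, among them the Y box, bound by the factor NF-Y, which is shown here for the H2-A alpha and H2-E beta genes because the ALLO cell with the most UMIs of one also had the most of the other. The sequences are RefSeq promoters of GRCm38.p6, 5′ to 3′ on the strand of the gene, with the motif CTGATTGG in capitals. H2-Aa lies at chr17:34287774-34288073 on the minus strand and H2-Eb1 at chr17:34305617-34305916 on the plus strand.
H2-Aa: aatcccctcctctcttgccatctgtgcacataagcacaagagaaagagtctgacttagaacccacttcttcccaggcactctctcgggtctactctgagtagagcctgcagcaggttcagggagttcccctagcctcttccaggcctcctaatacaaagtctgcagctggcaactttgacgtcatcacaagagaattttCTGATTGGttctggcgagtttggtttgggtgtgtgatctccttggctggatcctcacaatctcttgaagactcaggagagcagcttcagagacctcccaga
H2-Eb1: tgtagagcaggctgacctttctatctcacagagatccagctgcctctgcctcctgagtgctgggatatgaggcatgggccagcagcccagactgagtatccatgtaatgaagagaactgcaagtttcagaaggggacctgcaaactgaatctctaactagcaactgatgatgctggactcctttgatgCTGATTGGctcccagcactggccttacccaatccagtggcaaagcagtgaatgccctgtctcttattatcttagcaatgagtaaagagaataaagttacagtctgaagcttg
The motif began at base 200 of 300 in H2-Aa and at base 189 in H2-Eb1. Searched on both strands, it was in 1346 of 32851 promoters of this length (4.1%), and in 3 of 13 genes of the class II and costimulation list with an entry (23.1%), the other one being H2-Oa. The first share counts promoters and the second counts genes with a match in any of their promoters, so they differ in unit. A match is a description of the letters only.

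MHC class I genes, which present peptides to CD8 T cells, were closer between the libraries. Of 14 measured, 6 were higher and 1 lower in ALLO, with a median of 0.45, and 2 and 1 of 11 with a median of -0.02 within Ace/Treml4 members. H2-K1 had 2534 CPM in ALLO and 1607 in SYN (ratio 1.58, 1.23 to 2.0). Its ratio within Ace/Treml4 members was 0.996 (0.764 to 1.29). Psmb9, an immunoproteasome subunit, had 304 and 91.2 (ratio 3.33, 1.39 to 7.93).

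Receptors for the Fc part of antibodies did not move together. Fcer1g, the signalling chain shared by activating Fc receptors, had 4764 CPM in ALLO and 2526 in SYN (ratio 1.89, 1.57 to 2.26), and was found in 18 of 19 and 33 of 46 cells. Its log2 ratio of 0.92 fell to 0.63 without the deepest SYN member and to 0.59 within Ace/Treml4 members. Without members holding lymphocyte genes it was 0.56, under the 1.5-fold limit. With cells of equal weight it was 0.78, and over members of 1000 or more UMIs 0.96. Fcgr4, the mouse FcγRIV of nonclassical monocytes, had 76.0 and 260 (ratio 0.293, 0.0578 to 0.925). Within the Ace/Treml4 members Fcgr4 had 3 UMIs in 3 of 16 ALLO cells and 30 UMIs in 14 of 23 SYN cells (ratio 0.159, 0.0311 to 0.512). In the same cells S1pr5, a sphingosine phosphate receptor that lets monocytes leave the bone marrow, had 5 UMIs in 4 of 16 ALLO cells and 32 UMIs in 17 of 23 SYN cells (ratio 0.249, 0.0756 to 0.643). Fcgr2b, the inhibitory receptor, had 127 CPM in ALLO and 126 in SYN, and Fcgr3 177 and 281 (ratio 0.632, 0.239 to 1.43). Thinned to 1000 UMIs, Fcgr4 was found in 7.69% of ALLO and 35.7% of SYN members (15.8% and 34.8% without thinning), against 1 of 1000 ALLO and 0 of 1000 SYN B cell barcodes, the second allowing up to 0.3%.

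The study's title names the Th17 pathway, and the cytokines that steer T cells towards it were found to different extents in these cells. Il6 and Il23a had no UMI in any of the 19 ALLO or 46 SYN members, which allows up to 15.8% and 6.52% of cells with a UMI. Il12b likewise had none. Il1b, interleukin 1 beta, had 3 UMIs in 2 ALLO cells and 19 UMIs in 10 SYN cells (76.0 and 133 CPM, ratio 0.570, 0.108 to 1.94). Neutrophil barcodes held far more of it, with 1072 CPM in 12 ALLO barcodes and 4217 in 93 SYN barcodes. Tgfb1, transforming growth factor beta 1, had 710 CPM in ALLO and 547 in SYN (ratio 1.30, 0.810 to 2.02), in 9 of 19 and 32 of 46 cells. Il17ra, a chain of the interleukin 17 receptor, had 456 CPM in ALLO and 449 in SYN (ratio 1.02, 0.567 to 1.74), in 13 of 19 and 28 of 46 cells. In B cell barcodes Il17ra had 63.2 and 71.3 CPM. Of 12 measured cytokine and growth factor receptors other than Csf1r, 2 were higher, 2 lower and 8 between the limits; Ifnar2, a chain of the type I interferon receptor, had a ratio of 2.26 (1.10 to 4.48), and Csf2rb, the shared chain of the GM-CSF receptor, had 1 UMI in ALLO and 23 in SYN (ratio 0.157, 0.00381 to 0.967).

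Interferon response genes were mostly too sparse to measure. Of the type I interferon list 5 genes were measured, 2 higher and 0 lower in ALLO. Zbp1, a sensor of nucleic acids, was one of the higher genes, with 6 UMIs in ALLO and 14 in SYN, and its interval spanned 1 (ratio 1.55, 0.488 to 4.29). Irf1, a transcription factor of the interferon gamma response, had 279 CPM in ALLO and 105 in SYN (ratio 2.65, 1.10 to 6.17). Ly6e (ratio 1.49, 1.21 to 1.81), Ifitm3 (1.07, 0.868 to 1.31) and Ifi27l2a (0.770, 0.484 to 1.18) were between the limits. Within Ace/Treml4 members Irf1 had 11 UMIs in ALLO and 10 in SYN (ratio 1.75, 0.675 to 4.60).

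Of the immediate early and heat shock list, genes that cell handling can induce, 2 of 22 measured were higher and 10 lower in ALLO, with a median of -0.48. Fos had 786 CPM in ALLO and 1782 in SYN (ratio 0.441, 0.293 to 0.642), and Hsp90ab1 786 and 1726 (ratio 0.455, 0.303 to 0.663). In SYN, the deepest member held 89 of 254 Fos UMIs, and a single cell held 94 of 246 Hsp90ab1 UMIs. The median of the list was -0.05 without the deepest SYN member, -0.02 within Ace/Treml4 members and 0.08 with cells of equal weight. The part of handling in the other differences was not tested.

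Among lysosomal genes, 3 of 20 were higher and 2 lower, with a median of 0.11; Ctsb, a cathepsin, had 1242 CPM in ALLO and 1312 in SYN. Among myeloid transcription factors, 3 of 15 were higher and 2 lower, with a median of 0.19, and Spi1, the master regulator PU.1, had 710 and 652 CPM (ratio 1.09, 0.686 to 1.67). Phagocytic and scavenger receptors had 2 of 8 higher and 1 lower (median 0.52), pattern recognition genes 4 of 7 higher and 1 lower (0.85), NF-kB genes 4 of 6 higher and 2 lower (0.79), and Ly6, Ms4a and Ifitm genes 2 of 9 higher and 1 lower (0.10). Within Ace/Treml4 members, 0 of 5 NF-kB genes were higher and 1 lower (0.08), and 1 of 3 pattern recognition genes was higher and 1 lower (0.25). Phagocytic and scavenger receptors had 0 of 8 higher and 2 lower there (-0.04), and Ly6, Ms4a and Ifitm genes 2 of 7 higher and 0 lower (0.32). Complement genes other than C1qa and C1qb, chemokine receptors and chemokine ligands had 4, 6 and 3 measured genes. Ccl5, a chemokine of cytotoxic lymphocytes, had 24 UMIs in 1 ALLO cell and 15 in 1 SYN cell, the deepest SYN member.

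**Figure D5:**
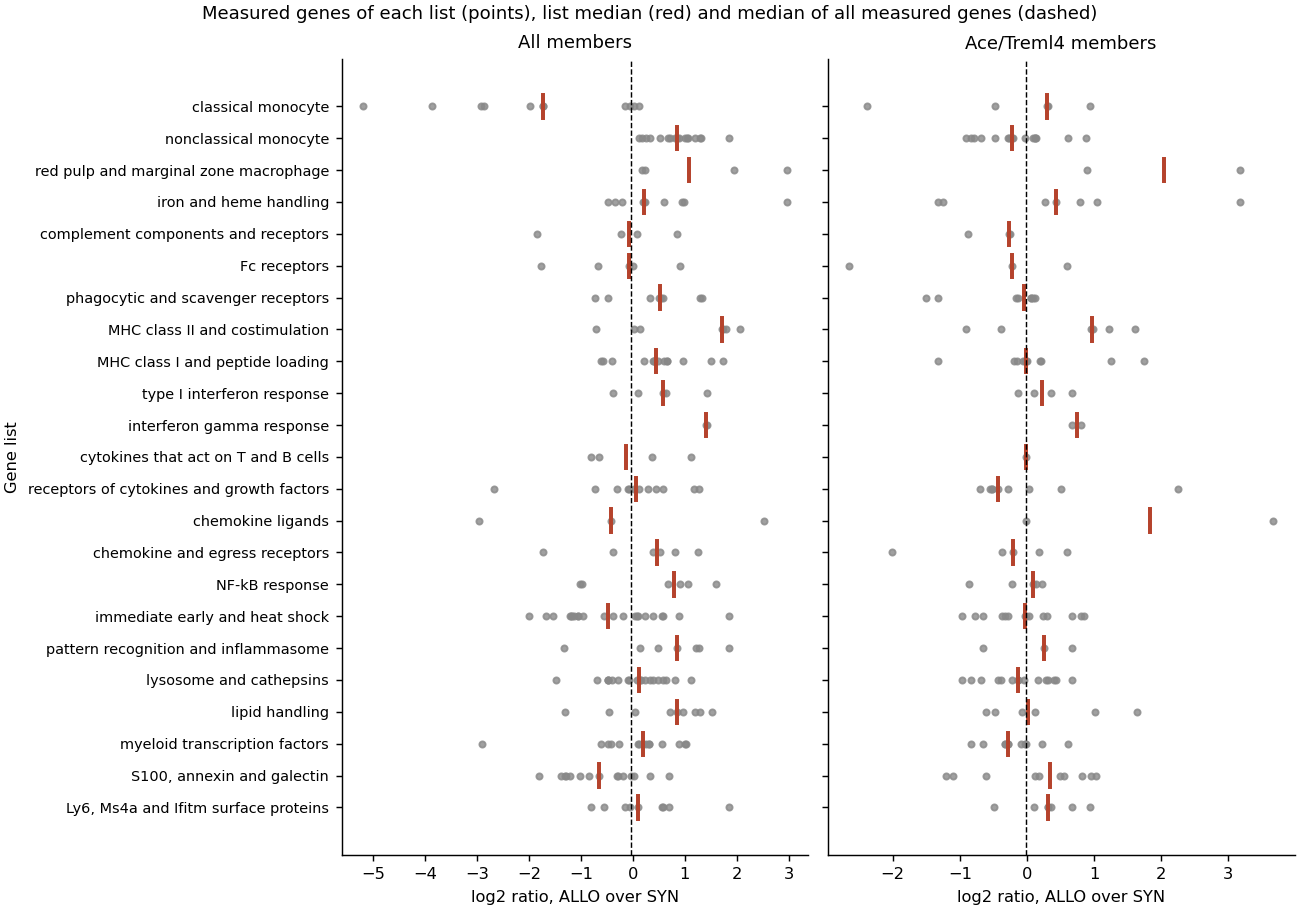
Each grey point is a measured gene of the list named at the left, at its log2 ratio ALLO over SYN, over all members (left panel) and Ace/Treml4 members (right panel); red bars are list medians, the dashed line is the median of all measured genes, genes that chose the members are left out, and genes with 0 UMIs in a library are drawn at 3 UMIs there. The classical monocyte median is -1.73 over 11 genes at the left and 0.30 over 5 genes at the right, where Fn1, F13a1 and Chil3 are not measured. The nonclassical median is 0.85 at the left and -0.23 at the right, over 17 genes in both.

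Some members carried genes of other cells. The ALLO member with 24 Ccl5 UMIs had 2928 UMIs, with 18 Gzma and 10 Nkg7 UMIs of cytotoxic lymphocytes beside 3 Ace, 3 Csf1r and 3 Ly6c2 UMIs, and it held all 39 natural killer list UMIs of the ALLO members. A SYN member with 2161 UMIs held 45 Igkv4-55, 14 Jchain and 13 Ighm UMIs of antibody-producing cells beside 4 Ace and 3 Csf1r UMIs. Over whole lists, 4 of 16 B cell markers were detected in ALLO members with 17 UMIs and at most 5 in a cell, and 15 of 16 in SYN members with 115 UMIs and at most 21. Cd79a was 0 by the rule, and Ms4a1 and Pax5 were at 0 in ALLO. Of 14 T cell markers 2 were detected in each library, with 2 and 3 UMIs, and Trac and Cd28 were at 0 in both. Neutrophil markers summed to 4 UMIs in ALLO and 30 in SYN, and Camp, Ngp and Ltf were at 0 in both. Basophil and mast cell markers had 1 UMI in ALLO and 49 in SYN, of which the deepest SYN member, the cell with 168 Mpo UMIs, held 47. Erythroid markers had 0 UMIs in ALLO and 5 in that same SYN cell, and hemoglobin genes were at 0 in both libraries. Without the 3 barcodes with at least 10 UMIs of Mpo, Gzma or Jchain, 183 genes were higher in ALLO, the classical median was -1.94 and the nonclassical median 0.64.

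Other myeloid barcodes were set beside the members. Cx3cr1 had 355 CPM in ALLO and 246 in SYN members, against 53.0 and 77.3 in 10 ALLO and 22 SYN dendritic barcodes and 0 in both sets of neutrophil barcodes. Fcgr4 had no UMI in either set of dendritic barcodes. Spi1 lay at 710 in ALLO and 652 in SYN members, at 503 in ALLO and 668 in SYN dendritic barcodes and at 388 in ALLO and 724 in SYN neutrophil barcodes. H2-Aa was lower in members, at 2281 and 547, than in dendritic barcodes, at 6571 and 7760. No test was possible between these sets of cells from 1 library each.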

How the data were processed

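Spleen cells of 1 ALLO and 1 SYN library were profiled with a droplet 5′ kit, per the labels' protocols. The deposited values are raw UMI counts (whole numbers, not normalized). The submitters' processing notes name Cell Ranger 6.0.2, FastQC and mm10. Annotation and aligner options: not given in the sources used here. Groups were taken from the sample titles. Members and gene lists were chosen with earlier results of these data known, so no count over them is independent evidence. UMIs were summed over members per library and scaled to CPM, UMIs per 1000000 UMIs of those members. Genes with at least 20 UMIs were measured, a 1.5-fold difference set them apart, and 3 UMIs was the floor for a 0. Named genes were the 15 highest and lowest by the interval bound nearest 1 among genes with at least 30 UMIs, the 8 highest and lowest in Ace/Treml4 members, leading genes of each subset (at least 50 UMIs, and 10 in C1q members, where too few reached 50), and up to 6 genes of each list. Individual cells were described after their values were seen. Intervals are exact binomial, Poisson or conditional binomial. The Scrublet doublet caller (scanpy 1.11.5, python 3.11.15, scipy 1.17.1) marked 0 ALLO and 2 SYN barcodes (0.0114%) at its automatic threshold and so did not work; the highest 5% of its scores held no member. The self-test used simulated counts. The values of a few list genes are not reported here.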

Additional observations from a re-analysis of the deposited data

How the results depend on the processing

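The classical median stayed negative and the nonclassical median positive under every alternative run over all members. Limited to Ace/Treml4 barcodes, they changed sign, at 0.30 and -0.23. The medians of the lower and upper bounds spanned 0 there, at -0.40 to 0.87 and -1.12 to 0.66. The classical value there rests on 5 measured genes in place of 11, without F13a1, Fn1 and Chil3. Within Ace/Treml4 barcodes Itgax (-0.26), Nr4a1 (-0.28) and the S100, annexin and galectin median (0.34) changed sign too. The class II median was 2.13 over barcodes with at least 1000 UMIs, 2.34 without members holding lymphocyte genes, 0.96 in Ace/Treml4 members and 0.28 with cells of equal weight. It was 0.0715 without the deepest ALLO member and with every SYN member kept, where H2-Ab1 turned round to -0.38. Tubb5 had a log2 ratio of -1.95 over all members, with 77 of 98 SYN UMIs in 1 cell. It turned round to 0.0404 at a marker sum of at least 5, 0.35 without members holding lymphocyte genes and 0.45 in Ace/Treml4 members. It was 0.0373 without Lyz2-only members and 0.0594 without the 3 barcodes holding genes of other cells. With at least 50 UMIs per gene the NF-kB median was -0.98 and the lipid median -0.46. The red pulp median was 2.78 with at least 5 UMIs per gene.

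Genes higher in ALLO numbered 148 without members holding lymphocyte genes, 102 in Ace/Treml4 members, 178 without Lyz2-only members, 183 without the 3 barcodes, 1850 at 5 UMIs per gene and 71 at 50. Genes lower in ALLO numbered 211, 133 and 242 under the first 3 of these, 248 at a marker sum of at least 5, 1230 at 5 UMIs and 94 at 50. At 5 UMIs a gene found in ALLO alone or SYN alone passes through the floor. Members were 2.34% of ALLO and 2.67% of SYN barcodes without lymphocyte receptor UMIs, and 0.189% of SYN barcodes without members holding lymphocyte genes. SYN shares were 67.6% for Ace/Treml4 without Lyz2-only members, and 21.4% for Ly6c2/Ccr2 and 0% for C1q after thinning. A limit of 3 on S100a8 and S100a9 and the highest 5% of doublet scores removed no member. No subset had the 30 members in both libraries that had been set for levels within a subset. Levels within Ace/Treml4 members are given all the same, as a description. No ratio between libraries was taken within the Ly6c2/Ccr2 and C1q subsets. No paired analysis was possible because each group is 1 library and no result comes from a test. The 19 ALLO members and their 39462 UMIs limit every comparison: a gene under about 30 UMIs has an interval wide enough to span several-fold differences, and fewer cells of a type and less RNA per cell cannot be told apart in a summed level.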
